A study of Mus musculus with 6 samples.

Results

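Retinoic acid synthesis and response were followed through 9 genes in the epididymal fat pad (eWAT), a white fat depot of male mice. The genes are Aldh1a1, Aldh1a2, Aldh1a3, Aldh1a7, Stra6, Rdh10, Dhrs3, Rarb and Crabp2, found by gene name as 9 of the 54532 genes in the deposited count table. These genes were selected on measured values of the same contrast that is described here, so their levels in cachectic and control mice are given as a description. Where the fit called one of them, the call restates that selection and is no independent test. RNA-seq was made on eWAT from 3 control mice and 3 cachectic mice, all C57BL/6 males without a transgene, 6 to 10 weeks old when obtained. The cachectic mice had been inoculated under the skin with Lewis lung carcinoma (LLC) cells, an established mouse lung cancer line, and eWAT was harvested on day 21. Cachexia was defined by loss of body weight in mice that all carried the same tumor line, so tumor and wasting cannot be told apart in this design. Nothing in the labels pairs a cachectic mouse with a control mouse.

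Retinoic acid is a hormone-like product of vitamin A that cells make for themselves in a short chain of steps. Retinol enters the cell through the membrane receptor STRA6, RDH10 oxidizes it to retinal and DHRS3 turns retinal back to retinol, and the ALDH1A enzymes oxidize retinal irreversibly to retinoic acid. CRABP2 carries the acid to the nucleus, where receptors such as RARB pair with retinoid X receptors on DNA and switch genes on or off. Fat is a store of vitamin A outside the liver, and in adipocytes retinal and retinoic acid are known to act on fat storage and lipid burning.

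The 4 Aldh1a genes differ in how close they are to one another, which bears on whether reads can be told apart between them. In GRCm38, the build that the coordinates in the deposited table match for 8 of the 9 genes, Aldh1a1 (ENSMUSG00000053279) lies on chr19:20492715-20643462 on the plus strand (its end is 20643465 in GENCODE M21) and Aldh1a7 (ENSMUSG00000024747) on chr19:20692953-20727562 on the minus strand, with 49490 bases and 0 annotated genes between them. Aldh1a2 (ENSMUSG00000013584) lies on chr9:71215789-71296243 and Aldh1a3 (ENSMUSG00000015134) on chr7:66390890-66427517. The coding sequences of Aldh1a1 and Aldh1a7 were identical at 1380 of 1506 bases (91.6%). The other pairs within the family were identical at 65.6% to 67.7% of aligned bases. Reads were 150 bases long, and 0 of 1917 windows of 150 bases in the Aldh1a7 transcript were found unchanged in the Aldh1a1 transcript. Among windows of 75 bases, 50 of 1992 (2.51%) were shared, so a small share of trimmed or short reads could fit both genes.

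The stretch of 84 coding bases around the catalytic cysteine codon shows this closeness. It lies within 1 exon in each gene and is read here from GENCODE M21 transcripts in the sense of the gene, at chr19:20630677-20630760 (Aldh1a1), chr9:71283389-71283472 (Aldh1a2), chr7:66406064-66406147 (Aldh1a3, minus strand) and chr19:20708240-20708323 (Aldh1a7, minus strand). Capitals mark bases that differ from Aldh1a1.
Aldh1a1: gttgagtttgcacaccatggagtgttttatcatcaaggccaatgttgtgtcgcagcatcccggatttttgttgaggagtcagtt
Aldh1a2: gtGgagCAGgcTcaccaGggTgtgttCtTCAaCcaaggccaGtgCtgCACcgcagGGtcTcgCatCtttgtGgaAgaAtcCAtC
Aldh1a3: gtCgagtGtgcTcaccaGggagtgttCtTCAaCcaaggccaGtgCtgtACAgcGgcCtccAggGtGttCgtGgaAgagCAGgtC
Aldh1a7: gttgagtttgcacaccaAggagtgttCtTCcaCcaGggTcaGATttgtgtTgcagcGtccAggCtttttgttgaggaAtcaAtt
Aldh1a7 differed from Aldh1a1 at 16 of these 84 bases, Aldh1a3 at 26 and Aldh1a2 at 28.

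The closeness of the neighbours extends to the sequence before their start sites. RefSeq (GRCm38.p6) places 2 starts in Aldh1a1, 109385 bases apart, and the sequence before the downstream start resembles that before the only listed start of Aldh1a7. The 93 bases before the annotated first exon are shown because Aldh1a1 and Aldh1a7 differ in their values below, from chr19:20601868-20601960 (Aldh1a1) and chr19:20727564-20727656 (Aldh1a7, minus strand), with capitals where they differ from each other.
Aldh1a1: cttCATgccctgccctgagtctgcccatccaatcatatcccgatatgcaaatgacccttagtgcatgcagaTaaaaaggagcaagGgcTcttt
Aldh1a7: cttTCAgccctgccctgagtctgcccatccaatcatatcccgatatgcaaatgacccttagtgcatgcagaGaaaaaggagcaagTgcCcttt
The stretches were identical at 87 of 93 bases (93.5%). The matching stretch before the upstream start of Aldh1a1 was identical to that of Aldh1a7 at 28 of 93 bases. A gene count adds up transcripts from both starts of Aldh1a1.

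The raw count of each gene was scaled to the TMM-normalized library size as CPM, the counts per 1000000 counts of that size, and total counts lay between 14928766 and 18855546 per mouse. Of the 16003 genes with enough counts to be tested with edgeR's quasi-likelihood test, 2821 (17.6%) had an adjusted p under 0.05 (Benjamini-Hochberg), 1440 upregulated in cachectic mice (9%) and 1381 downregulated (8.63%). In 40.5% of tested genes the values of the groups did not overlap. Adipocyte markers were abundant in every mouse, with a summed level between 23462 and 29915 CPM in control and between 25529 and 39047 CPM in cachectic mice. The sum was carried by Cfd and Fabp4, and its members differed, since 1 of 8 was called higher (Cidec, 0.87 on the log2 scale, SE 0.22, adjusted p = 0.032, edgeR) and 1 lower (Lep, leptin, -3.14, SE 0.89, adjusted p = 0.048, edgeR). Plin1, perilipin of the fat droplet, had a cachectic mean at 37.0% of the control mean without being called (-1.44, SE 0.43, adjusted p = 0.057, edgeR). The part of adipocyte content in the values below was not tested. Control replicate 1 stood apart in some genes. Its Krt8, a keratin of epithelium and mesothelium, was at 94.7 CPM against 13.6 and 8.78 CPM in the other controls, and its Crabp1, a cellular retinoic acid-binding protein, was at 6.92 CPM against 0 in both others. Values that rest on this library are given with and without it.

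Of the 9 genes, 8 passed the filter on low counts and the fit called 2 of these lower, Aldh1a7 and Stra6. Because the genes were selected by this contrast, nothing is read from this count against the background of 8.63%. The median log2 fold change of the 8 genes was -0.58, and for the same reason nothing is read from it against other genes. Without control replicate 1 the log2 fold changes were -0.65 (Aldh1a1), -2.14 (Stra6), -0.30 (Rdh10), -0.54 (Dhrs3) and 0.18 (Rarb), and Stra6 was then no longer called. The value in every mouse is in the plot of the 9 genes.

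**Figure D1:**
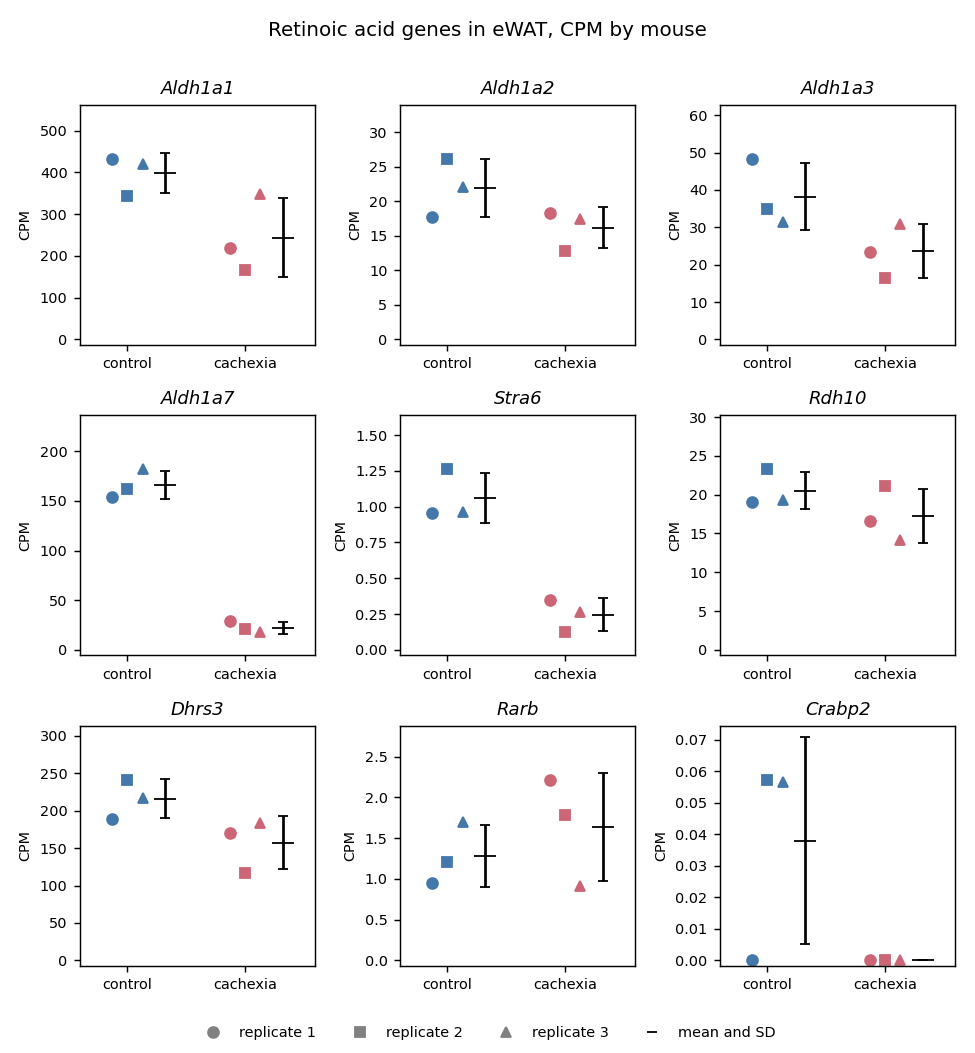
CPM of the 9 genes in each control (blue) and cachectic (red) mouse on linear axes, 1 panel a gene, with the group mean and SD (n = 3) beside the points and marker shapes for the replicate number. Aldh1a7 lay between 154 and 182 CPM in control and between 17.6 and 29.2 CPM in cachectic mice, whereas the groups overlapped in Aldh1a1, Aldh1a2, Rdh10 and Rarb.

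Aldh1a7, the close relative of Aldh1a1 in rodents, encodes an enzyme described as acting on other aldehydes rather than on retinal, and showed the widest separation of the 9 genes. It was at 154, 162 and 182 CPM in control replicates 1, 2 and 3 and at 29.2, 20.6 and 17.6 CPM in cachexia replicates 1, 2 and 3. All cachectic mice lay below all control mice, and the cachectic mean was 13.5% of the control mean (22.5 ± 6.01 against 166 ± 14.4 CPM, SD, n = 3). The fitted log2 fold change was -2.88 (SE 0.21). It was -2.94 without control replicate 1 and between -3.12 and -2.73 when any one mouse was left out.

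Aldh1a1, a cytosolic retinal dehydrogenase known from fat, moved less and its groups overlapped. It was at 432, 343 and 421 CPM in control mice and at 218, 165 and 348 CPM in cachectic mice. Cachexia replicate 3 (348 CPM) lay just above control replicate 2 (343 CPM), and the cachectic mice differed from one another by more than the control mice did. The log2 fold change was -0.71 (SE 0.27), -1.05 without cachexia replicate 3 and -0.49 without cachexia replicate 2, and the gene, not called in edgeR's test with all mice, was past the threshold in DESeq2 and without cachexia replicate 3. In the annotation, Aldh1a1 overlaps the antisense gene C730002L08Rik and the pseudogene Gm6684, and the sources used here do not say whether counting used strand.

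The ratio of the neighbours' counts was higher in every cachectic mouse than in any control mouse. Per count of Aldh1a7 there were 2.81, 2.11 and 2.32 counts of Aldh1a1 in control mice and 7.48, 8.01 and 19.8 in cachectic mice. The highest ratio was that of cachexia replicate 3, which had the highest Aldh1a1 and the lowest Aldh1a7 of its group. This ratio within a library does not depend on how libraries were scaled.

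Aldh1a2, the retinal dehydrogenase of the embryo and of mesothelium, was low and overlapped between groups. It was at 17.8, 26.1 and 22.0 CPM in control mice and at 18.3, 12.8 and 17.4 CPM in cachectic mice. The log2 fold change was -0.44 (SE 0.20), and -0.58 without control replicate 1, which held the lowest control value. Aldh1a2 overlaps the pseudogene Gm48124.

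Aldh1a3, a retinal dehydrogenase best known from the developing face and eye, was at 48.3, 34.9 and 31.4 CPM in control mice and at 23.5, 16.4 and 30.9 CPM in cachectic mice. The groups did not overlap, but cachexia replicate 3 (30.9 CPM) and control replicate 3 (31.4 CPM) nearly met. The log2 fold change was -0.69 (SE 0.26), and -0.49 without control replicate 1, which held the highest value.

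Cachexia replicate 2 was the lowest of all 6 mice in Aldh1a1, Aldh1a2, Aldh1a3 and Dhrs3, and the summed level of mesothelial markers, which mark the cell layer that covers the fat pad, was lowest there too. The 12 mesothelial markers summed to between 446 and 500 CPM in control mice and to 443, 230.0 and 511 CPM in cachectic mice. Of the 12, 8 were lowest in that mouse, whereas Muc16, Bnc1, Krt18 and Wt1 were lowest in another one. None of the 12 was called in edgeR's test (0 at an adjusted p under 0.05, 1 lower and 0 higher at an unadjusted p under 0.05). The sum of control replicate 1 (482 CPM) held the highest Krt8, Krt18 and Krt19 of all 6 mice (94.7, 43.2 and 48.6 CPM). Without that library the other controls still span 446 to 500 CPM. Of the adipocyte markers, Fabp4, Lipe and Lep were also lowest in cachexia replicate 2, whereas Adipoq, Plin1, Cidec, Cfd and Pparg were lowest in other mice. Of the markers of fat progenitors, Pi16, Dpp4 and Dpt were lowest there, and Pdgfra, Cd34, Ly6a, Col15a1 and Icam1 in other mice. The part of any of these cell types in the low values of cachexia replicate 2 was not tested. In bulk tissue, fewer cells of a type and less RNA per cell cannot be told apart.

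The share of each gene in the family was read from the deposited FPKM, which divide the count by gene length and sequencing depth and so allow levels of different genes to be set side by side. In control mice Aldh1a7 held 41.3%, 47.0% and 46.4% of the summed FPKM of the 4 genes, and in cachectic mice 19.7%, 18.95% and 9.11%. Aldh1a1 held 48.6%, 41.6% and 44.9% in control mice and 61.8%, 63.6% and 75.5% in cachectic mice. The sum itself was 178, 164 and 187 FPKM in control mice and 70.1, 51.4 and 91.1 FPKM in cachectic mice, so all cachectic mice were below all control mice. With the length of the coding transcript in place of the deposited gene length, the Aldh1a7 shares fell to 26.6%, 32.0% and 30.8% in control mice and to 11.6%, 11.04% and 4.92% in cachectic mice.

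**Figure D2:**
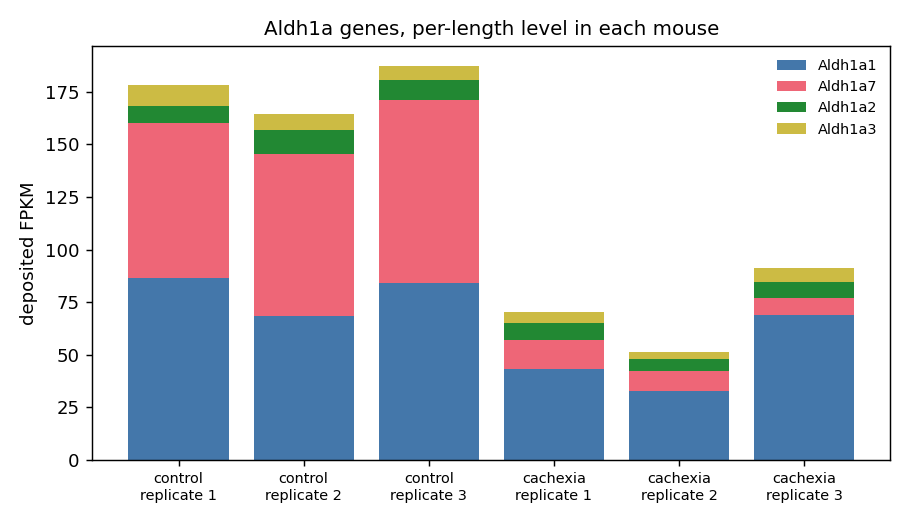
Deposited FPKM of Aldh1a1, Aldh1a7, Aldh1a2 and Aldh1a3 stacked in 1 bar for each mouse, on a linear axis from 0. The Aldh1a7 part shrank from between 41.3% and 47.0% of the bar in control mice to between 9.11% and 19.7% in cachectic mice, and on coding transcript lengths these ranges would be 26.6% to 32.0% and 4.92% to 11.6%.

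The length used in FPKM matters for these shares. The gene length in the deposited table was 4934 bases for Aldh1a1, 2.09 times the 2358 bases of its coding transcript used here, whereas the 2066 bases of Aldh1a7 equalled its transcript. A longer divisor lowers the FPKM of Aldh1a1 relative to Aldh1a7 equally in all mice, so it shifts the shares but leaves the change in the ratio of the neighbours as it is. On transcript lengths, Aldh1a1 held 65.6%, 59.2% and 62.6% of the sum in control mice and 76.1%, 77.4% and 85.4% in cachectic mice, so in control mice it was about level with Aldh1a7 on the deposited length and above it on the transcript length. The length was also longer than the transcript for Aldh1a3 (4617 against 3443 bases) and equal for Aldh1a2 (2264 bases).

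Stra6, the receptor that takes up retinol from its plasma carrier, was near the limit of detection. It had 19, 22 and 17 counts in control mice (0.953, 1.26 and 0.963 CPM) and 6, 2 and 4 counts in cachectic mice (0.350, 0.123 and 0.262 CPM). The groups did not overlap, and the log2 fold change was -2.07 (SE 0.50). It passed the filter of 0.559 CPM through the control mice alone (3 of 3 control and 0 of 3 cachectic mice), so a gene kept in this way had to differ. The call was lost whichever mouse was left out, with values between -2.43 and -1.76. Stra6 overlaps Ccdc33 and Gm16131.

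Rdh10, the retinol dehydrogenase that makes retinal, was close in all mice. It was at 19.02, 23.3 and 19.3 CPM in control mice and at 16.6, 21.1 and 14.1 CPM in cachectic mice. The groups overlapped, with a log2 fold change of -0.25 (SE 0.19), which was -0.12 without cachexia replicate 3 and -0.41 without cachexia replicate 2.

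Dhrs3, the reductase that returns retinal to retinol, was more abundant than Rdh10 and Stra6, also per length. It was at 189, 241 and 217 CPM in control mice and at 171, 117 and 184 CPM in cachectic mice. The groups did not overlap, though cachexia replicate 3 (184 CPM) and control replicate 1 (189 CPM) nearly met, and the log2 fold change was -0.46 (SE 0.20).

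Rarb, a retinoic acid receptor that is itself a classical target of retinoic acid, was barely expressed and was the only tested one of the 9 genes with a positive fold change. It had 19, 21 and 30 counts in control mice (0.953, 1.20 and 1.70 CPM) and 38, 29 and 14 counts in cachectic mice (2.22, 1.78 and 0.918 CPM). The cachectic mice held both the highest and the lowest value. The log2 fold change was 0.35 (SE 0.45), smaller than its error, and the gene overlaps Top2b and Gm48162 on the opposite strand.

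Crabp2, the protein that carries retinoic acid to its receptors, was not detectable at this depth. It had 0, 1 and 1 counts in control mice and 0 in every cachectic mouse. A count of 0 allows up to 3 counts, which is between 0.151 and 0.197 CPM per library, so no fold change is given.

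The order of the genes by level per length depended on the length used. On the deposited FPKM, Aldh1a1 (79.8 ± 9.93 FPKM, SD, n = 3), Aldh1a7 (79.3 ± 6.84) and Dhrs3 (72.8 ± 8.64) were highest in control mice and did not differ beyond their spread. With the length of the coding transcript, Aldh1a1 (167 ± 20.8, SD, n = 3) stood alone above Dhrs3 (91.1 ± 10.8) and Aldh1a7 (79.3 ± 6.84), which did not differ beyond their spread. Aldh1a2 (9.58 ± 1.80 FPKM) and Aldh1a3 (8.17 ± 1.93 FPKM) followed without differing beyond their spread, and their order turned on transcript length, where Aldh1a3 was at 10.96 ± 2.58. Rdh10 (4.87 ± 0.55 FPKM) came next, with Rarb (0.241 ± 0.071 FPKM) and Stra6 (0.179 ± 0.029 FPKM) last, and these kept their places on transcript length, where Rarb (0.408 ± 0.121) and Stra6 (0.384 ± 0.062) did not differ beyond their spread. In cachectic mice Dhrs3 (52.5 ± 11.8 FPKM) and Aldh1a1 (48.3 ± 18.6 FPKM) were highest and overlapped. On transcript length Aldh1a1 (101 ± 38.8) was above Dhrs3 (65.8 ± 14.8), with values that still overlapped. Aldh1a7 (10.6 ± 2.87 on either length) stood next to Aldh1a2 (6.98 ± 1.28 on either length), Aldh1a3 (4.998 ± 1.54 FPKM) and Rdh10 (4.05 ± 0.83 FPKM).

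The genes whose log2 CPM followed each Aldh1a gene most closely over the 6 mice were looked up as a description. For Aldh1a7 they were Mrgprf (r = 0.999, and 0.970 after the group means were removed), Sec13 (0.999 and 0.946) and Degs1 (0.999 and 0.949). For Aldh1a1 they were Sec61b (0.997 and 0.992), Gm47416 (0.996 and 0.992) and Gas6 (0.995 and 0.990). For Aldh1a2 they were Scg3 (0.996 and 0.992), Popdc2 (0.989 and 0.984) and Tep1 (0.987 and 0.979), and for Aldh1a3 Wisp2 (0.995 and 0.990), Fam107b (0.994 and 0.988) and Ift20 (0.994 and 0.990). With 6 libraries and 16003 candidates high values arise readily, and the points share libraries, depth and the contrast.

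The rest of the retinoid pathway was read from 54 genes listed by role, which hold none of the 9 genes. Of the 52 found in the table, 34 were tested, and 5 were upregulated, 4 downregulated and 25 not called (edgeR, adjusted p over all tested genes). Their median log2 fold change was -0.19. The groups did not overlap in 15 of 34, to be set beside 40.5% of all tested genes. The share called, in either direction, is to be set beside 17.6% of all tested genes, and nothing particular to the list was tested. Without control replicate 1 the counts were 5 upregulated and 2 downregulated, without control replicate 2 they were 2 and 2, and without control replicate 3 they were 0 and 2. Without cachexia replicate 1 there were 3 upregulated genes. Among the genes named below, Lipe, Adh1, Tgm2, Rarres2, Rai14, Bco2, Aldh2, Aldh6a1, Aldh7a1 and Aldh16a1 overlap a gene on the other strand, which leaves their counts uncertain where strand was not used. Rdh16 and Rdh5 overlap a gene on the same strand, which leaves their counts uncertain in either case.

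**Figure D3:**
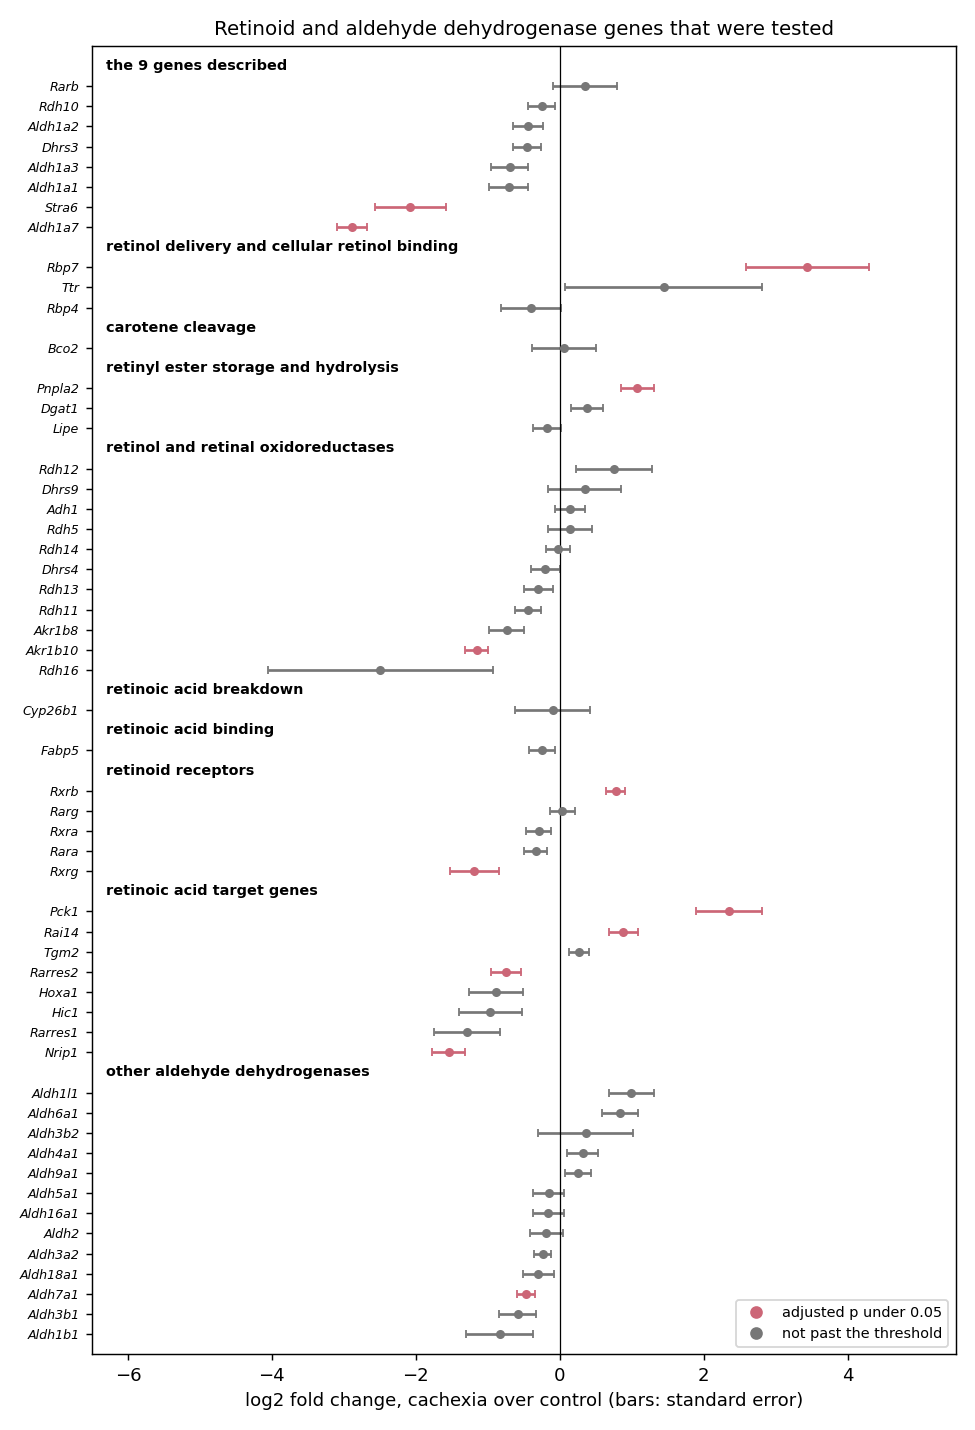
Fitted log2 fold changes between cachectic and control mice with their standard errors for tested genes, grouped by role. Red points had an adjusted p under 0.05 and gray points did not, with Rbp7 (3.44) furthest to the right and Aldh1a7 (-2.88) furthest to the left among the red points.

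Among genes of retinol delivery and binding, 1 of 4 tested was called, upward. Rbp7, a cellular retinol-binding protein of fat and endothelium, was at 11.5, 12.2 and 10.9 CPM in control mice and at 103, 14.2 and 260 CPM in cachectic mice. Its size differed widely between cachectic mice, since replicate 2 was barely above the control mice, and the log2 fold change was 3.44 (SE 0.85, adjusted p = 0.031, edgeR). It was called in 5 of 14 other settings and not without control replicate 1 (3.44, adjusted p = 0.076, edgeR). With any single mouse left out the value lay between 2.35 and 3.98, and the call held only without cachexia replicate 2. Endothelial markers, which include Pecam1 and Cdh5, summed to between 1296 and 1388 CPM in control and between 1900 and 2715 CPM in cachectic mice, with 3 of 6 called higher and 0 lower. Their sum was highest in cachexia replicate 2, where Rbp7 was lowest of its group. Pecam1, Cdh5, Emcn and Tek were highest in that mouse, whereas Kdr and Cldn5 were lower there than in the other cachectic mice. The part of endothelial content in the values of Rbp7 was not tested. Rbp4, the plasma carrier of retinol, had a log2 fold change of -0.40 (SE 0.42) and was not called. That value rested on cachexia replicate 2, without which it was -0.02.

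Bco2, which cleaves carotenoids, was the only tested gene of carotene cleavage and was not called (0.057, SE 0.44). In storage and release of retinyl esters, 1 of 3 tested genes was called. Pnpla2, the lipase ATGL that opens stored triglyceride, was at 1326, 1511 and 1628 CPM in control mice and at 3353, 2445 and 3643 CPM in cachectic mice. The groups did not overlap, and the log2 fold change was 1.08 (SE 0.23, adjusted p = 0.020, edgeR), or 1.00 without control replicate 1 (adjusted p = 0.049, edgeR). The call was lost without control replicate 2 (1.09, adjusted p = 0.077, edgeR), control replicate 3 (1.15, adjusted p = 0.079, edgeR) or cachexia replicate 1 (1.03, adjusted p = 0.051, edgeR). The Pnpla2 call was also lost with replicate number as a block, and held in 10 of 14 other settings. Lipe, hormone-sensitive lipase (-0.17, SE 0.19), and Dgat1, an acyltransferase that can esterify retinol (0.38, SE 0.22), were not called.

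Among the 11 tested oxidoreductases of retinol and retinal, 0 were upregulated and 1 was downregulated (edgeR), with 0 higher and 3 lower at an unadjusted p under 0.05. Akr1b10, an aldo-keto reductase that can reduce retinal, was at 23.9, 26.3 and 23.5 CPM in control mice and at 12.5, 11.4 and 9.24 CPM in cachectic mice. All cachectic mice lay below all control mice, with a log2 fold change of -1.16 (SE 0.16, adjusted p = 0.0048, edgeR), and it was called in 14 of 14 other settings. Its near relative Akr1b8 was not called in edgeR's test (-0.74, SE 0.24) but was called lower in DESeq2 (adjusted p = 0.038), and how reads were split between such relatives is uncertain. Adh1 (0.14, SE 0.21), an alcohol dehydrogenase that oxidizes retinol, and Dhrs4 (-0.20, SE 0.20), a retinal reductase, were not called.

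Rdh16, a retinol dehydrogenase that was singled out after its values were seen, was set by 1 mouse. It overlaps the pseudogene Rdh18-ps on the same strand, so its counts are uncertain. It was at 16.3 CPM in control replicate 1 and at 0.172 and 0.057 CPM in the other control mice, against 0.875, 0.676 and 1.38 CPM in cachectic mice. Its log2 fold change was -2.50 (SE 1.56) and not called with all mice, and 3.01 (adjusted p = 0.042, edgeR) without that mouse.

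In breakdown of the acid 1 of 3 genes was tested and in its transport 1 of 2, and neither of the tested genes was called. Cyp26b1, which breaks retinoic acid down, was at -0.10 (SE 0.52) on the log2 scale, and Fabp5, a fatty-acid-binding protein that can carry the acid to other receptors, at -0.24 (SE 0.18). Cyp26a1, the classical enzyme that retinoic acid induces, had too few counts to be tested. It was at 0.050, 0.172 and 0 CPM in control mice and at 0.525, 0.123 and 0.852 CPM in cachectic mice.

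Of the 5 retinoid receptors, all tested, 1 was upregulated and 1 downregulated. Rxrb, a retinoid X receptor found in most tissues, was at 38.5, 35.2 and 32.5 CPM in control mice and at 65.1, 63.4 and 53.8 CPM in cachectic mice. The groups were well apart (log2 fold change 0.78, SE 0.13, adjusted p = 0.0088, edgeR), with 0.84 without control replicate 1. The call was lost without control replicate 3 (0.72, adjusted p = 0.056, edgeR). Rxrg, the retinoid X receptor of more limited tissues, was at 16.5, 20.2 and 20.4 CPM in control mice and at 11.96, 8.84 and 4.20 CPM in cachectic mice. All cachectic values lay below the control values (-1.19, SE 0.34, adjusted p = 0.049, edgeR), but the call was lost without control replicate 1 (adjusted p = 0.068, edgeR), control replicate 2 (adjusted p = 0.127, edgeR), control replicate 3 (adjusted p = 0.143, edgeR) or cachexia replicate 2 (adjusted p = 0.101, edgeR). The Rxrg call was also lost with plain library totals in place of TMM and with replicate number as a block, and held in 8 of 14 other settings. Rxra (-0.29, SE 0.17) and Rarg (0.037, SE 0.18) were not called.

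Of the 8 tested genes listed as targets of retinoic acid, 2 rose and 2 fell. Nrip1, a corepressor of nuclear receptors that restrains lipid burning in fat, was at 227, 366 and 406 CPM in control mice and at 114, 126 and 103 CPM in cachectic mice. The groups did not overlap (-1.54, SE 0.23, adjusted p = 0.0059, edgeR), and the call held in 14 of 14 other settings. Rarres2, which encodes the adipokine chemerin, was at 141, 138 and 128 CPM in control mice and at 91.7, 55.6 and 95.6 CPM in cachectic mice. Its log2 fold change was -0.74 (SE 0.21, adjusted p = 0.045, edgeR), and the call was lost without control replicate 1 (adjusted p = 0.089, edgeR), control replicate 2 (adjusted p = 0.117, edgeR), control replicate 3 (adjusted p = 0.110, edgeR) or cachexia replicate 1 (adjusted p = 0.069, edgeR). The Rarres2 call was also lost with plain library totals and with replicate number as a block, and held in 8 of 14 other settings.

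Pck1, the enzyme of glyceroneogenesis in fat, was at 379, 953 and 558 CPM in control mice and at 4136, 1634 and 3873 CPM in cachectic mice. Every cachectic mouse was above every control mouse (2.35, SE 0.46, adjusted p = 0.014, edgeR). Rai14, a gene named for its induction by retinoic acid, was at 24.7, 22.9 and 19.04 CPM in control mice and at 33.7, 36.4 and 53.0 CPM in cachectic mice (0.88, SE 0.20, adjusted p = 0.024, edgeR). Both were called without control replicate 1 as well. Without control replicate 3 neither was (Pck1 2.26, adjusted p = 0.071, and Rai14 0.78, adjusted p = 0.1003, edgeR), and Rai14 was not called without control replicate 2 either (0.90, adjusted p = 0.074, edgeR). The Rai14 call was also lost with replicate number as a block, and held in 11 of 14 other settings. Tgm2, a transglutaminase (0.26, SE 0.14), and Hic1, a transcriptional repressor (-0.96, SE 0.44), were not called. Hic1 was called without cachexia replicate 1 (-1.65, adjusted p = 0.021, edgeR), and was at -0.59 without cachexia replicate 3.

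**Figure D4:**
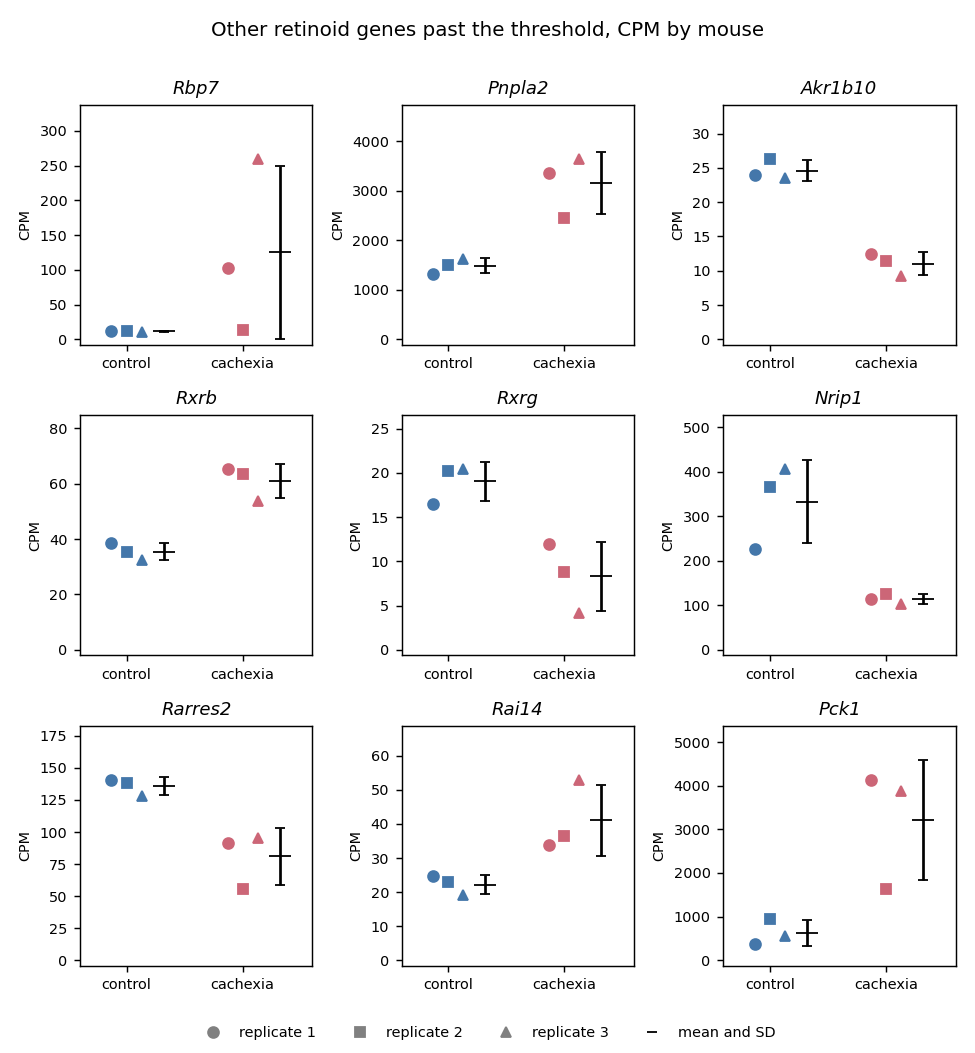
CPM of the 9 other retinoid genes past the threshold in each control (blue) and cachectic (red) mouse on linear axes, with the group mean and SD (n = 3). In Rbp7 cachexia replicate 2 lay at 14.2 CPM beside control mice at 10.9 to 12.2 CPM, whereas in Akr1b10, Rxrb and Nrip1 the groups stood clearly apart.

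Promoters were searched for the direct repeat with a 5-base spacer to which retinoic acid receptors are known to bind. The half-sites accepted were the consensus AGGTCA, the form AGTTCA that Rarb carries, the form GGTTCA that stands beside it there, and the related form GGGTCA, in any pair and on both strands. They were searched in RefSeq windows of 300 bases (250 before to 50 after a start). Such a window was given for 6 of the 9 genes, 12 windows in all, and not for Aldh1a3, Rdh10 and Crabp2. The repeat was found in 31 of 27025 genes (0.115%). The match in Rarb, 1 of the 9 genes, follows from the choice of half-sites and is no finding, and of the other 5 genes with a window none had a match. Among the other listed genes Cyp26a1 had one, made of the form that Rarb carries. Without the forms taken from Rarb, that is with AGGTCA and GGGTCA alone, the repeat was found in 9 of 27025 genes (0.0333%), and in 0 of the 9 genes and 0 of the other listed genes. The sites are shown with 6 flanking bases, the half-sites in capitals, from chr14:16575507-16575535 (Rarb, minus strand, 53 to 37 bases before the start) and chr19:37697770-37697798 (Cyp26a1, plus strand, with the repeat on the other strand, 32 to 16 bases before the start).
Rarb: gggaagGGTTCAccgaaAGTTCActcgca
Cyp26a1: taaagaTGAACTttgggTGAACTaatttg
Both genes that carry the repeat were at or below 2.22 CPM in every mouse. Repeats with spacers of 1 and 2 bases were found in 0.263% and 0.311% of genes and in none of the 9 genes. A match describes letters and not binding, and the windows do not cover distant sites.

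Aldehyde dehydrogenases outside the Aldh1a family were read as relatives of a different role. The deposited file held 17 of them and 13 were tested, and 0 were upregulated and 1 was downregulated (edgeR, adjusted p), with 2 higher and 1 lower at an unadjusted p under 0.05 and 2 higher and 1 lower in DESeq2. Their median log2 fold change was -0.16. Aldh7a1, which acts in lysine breakdown, was at 75.3, 82.5 and 86.7 CPM in control mice and at 64.2, 60.1 and 52.2 CPM in cachectic mice. The groups did not overlap (-0.47, SE 0.13, adjusted p = 0.042, edgeR), and the call was lost without control replicate 1 (adjusted p = 0.054, edgeR) and in 9 of 14 other settings in all, among them each setting that left out 1 mouse (-0.54 to -0.39). Aldh2, the mitochondrial enzyme that clears acetaldehyde (-0.18, SE 0.23), and Aldh6a1, an enzyme of valine breakdown (0.84, SE 0.25, adjusted p = 0.052, edgeR), were not called. Aldh6a1 was called in DESeq2 (adjusted p = 0.0038), with plain library totals and without cachexia replicate 3 (1.00, adjusted p = 0.038, edgeR). The log2 fold change of Aldh1a7 (-2.88) lay below the range of these 13 genes, which ran from -0.84 to 0.99. Aldh1a7 was selected on this contrast, so nothing is read from that difference, which was not tested.

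Markers of some other cells in the fat pad moved with the groups and those of others did not. Markers of fat progenitors summed to between 1389 and 1630 CPM in control mice and between 735 and 905 CPM in cachectic mice, with 3 of 8 called lower (Pi16, Dpt and Col15a1) and 2 higher (Ly6a and Icam1). Most of the difference in the sum lay in Col15a1 (mean 641 CPM in control and 108 CPM in cachectic mice) and Dpt (331 and 107 CPM). Pdgfra (-0.75 on the log2 scale), Dpp4 (-0.12) and Cd34 (-0.027) were not called. Neutrophil markers summed to between 11.8 and 14.96 CPM in control mice and between 205 and 720 CPM in cachectic mice, with 7 of 8 called higher. Macrophage markers summed to between 720 and 884 CPM in control and between 486 and 798 CPM in cachectic mice, so the groups overlapped, with 1 of 6 called lower. B cell markers summed to between 6.13 and 10.3 CPM in control and to 3.15, 6.63 and 3.08 CPM in cachectic mice. Skeletal muscle markers summed to between 22.9 and 39.4 CPM in control and to 7.12, 6.45 and 58.5 CPM in cachectic mice. The groups overlapped in both sums. Nearly all of the muscle sum was Acta1 (22.2, 35.9 and 39.1 CPM in control and 6.42, 5.83 and 57.2 CPM in cachectic mice). Mylpf was at most at 1.31 CPM, Ckm at most at 0.151 CPM, and Myh4 was at 0 in every mouse. Markers of epididymal epithelium summed to 5.12, 1.03 and 1.25 CPM in control mice and to at most 1.40 CPM in cachectic mice. The highest sum, in control replicate 1, came mostly from Adam7 (3.06 CPM), and 0 of 8 were tested. The part of these cell types in the values of Aldh1a7 and the other genes was not tested.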

How the data were processed

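The authors extracted total RNA from eWAT, sequenced 150-base paired reads, removed low-quality reads, aligned with Hisat2 and counted reads per gene with featureCounts (1.5.0-p3 in the submitters' processing notes). The deposited counts are raw counts per gene and mouse, and the deposited FPKM were computed by the authors from count and gene length. The notes list mm9, but 98.3% of the gene identifiers found in GENCODE M21 have GRCm38 coordinates, as do 8 of the 9 genes (Aldh1a1 differs). The authors' table of fold changes and p-values (DESeq2 1.16.1) was not used.

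Samples were grouped by their labels, 3 in each group. Counts were fitted in R 4.3.3 with edgeR 4.0.16 (filterByExpr with a minimum count of 10, TMM, quasi-likelihood test, Benjamini-Hochberg over 16003 genes, threshold 0.05, no covariates). The scripts were tested on simulated data. The 9 genes and the gene lists were chosen with earlier results of these data known. Named genes are the 9 genes, every called gene of the role lists and of the other aldehyde dehydrogenases, and the 2 most abundant uncalled genes of each. Exceptions are stated, 1 gene that the rule covers is not reported here, and for each Aldh1a gene the 3 most alike genes are given. Alternatives were RLE size factors, plain totals, no filter, a replicate block, DESeq2 1.42.0, limma-voom and limma on log2 FPKM (limma 3.58.1, pseudocounts 1 and 0.1), and leaving out each mouse, 14 in all. Total counts (14928766 to 18855546) and the biological coefficient of variation of 0.264 set the precision. Counting limits cover counting error only, and labels do not say more about how the mice were sampled, so p-values measure the spread between these mice. A two-sided exact permutation test of 3 against 3 cannot give a p below 0.1.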

Additional observations from a re-analysis of the deposited data

How the results depend on the processing

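Akr1b10 and Nrip1 kept their direction and call in all 14 other settings. The calls among the 9 genes, which were selected on this contrast so that nothing is read from them, were 2 lower, and 1 lower without a filter, in limma on log2 FPKM with either pseudocount and with the replicate block, and 1 to 2 lower when 1 mouse was left out. The rest of the retinoid pathway (5 higher, 4 lower) gave 6 lower in DESeq2, with Akr1b8 and Rarres1 added, 2 lower with plain library totals, 2 higher and 2 lower with the replicate block, and 0 to 5 higher and 2 to 4 lower with 1 mouse left out. Control replicate 3 gave the lowest, 0 higher and 2 lower without it. The other aldehyde dehydrogenases (0 higher, 1 lower) gave 2 higher in DESeq2, 2 higher and 0 lower with plain totals, 1 higher and 0 lower without a filter and with the replicate block, and 0 to 1 higher and 0 lower with 1 mouse left out.

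Over all tested genes (1440 higher, 1381 lower), the replicate block gave 913 higher and 968 lower and DESeq2 1955 and 1929. Leaving out 1 mouse gave 382 to 1197 higher and 446 to 1142 lower, with 600 and 712 without control replicate 2 and 382 and 446 without control replicate 3, where fewer samples were fitted. Replicate numbers belong to different mice, and correlations of their deviations were between -0.011 and 0.0085. Mice of the same number thus showed no shared deviation, but this cannot exclude that they were handled together. With plain totals the split was 1477 higher to 1151 lower, and the scalings moved the median of all genes by less than 0.1.

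The direction of uncalled genes turned in some settings, and the cause was not tested. Rdh16 (-2.50) was 0.13 with the replicate block and 0.44 in limma-voom, Rdh14 0.023 with plain totals, Rarg -0.0034 and -0.0053 in limma on log2 FPKM, and Aldh3b2 -0.13 with the replicate block, -0.17 in limma-voom, and -0.14 and -0.20 in limma on log2 FPKM. With 1 mouse left out the ranges were -0.30 to 0.31 (Bco2), -0.12 to 0.38 (Rdh5), -0.097 to 0.11 (Rdh14), -3.07 to 3.01 (Rdh16), -0.39 to 0.0020 (Dhrs4), -0.072 to 0.72 (Dhrs9), -0.042 to 0.28 (Adh1), -0.87 to 0.27 (Cyp26b1), -0.18 to 0.17 (Rarg), -0.87 to 0.83 (Aldh3b2) and -0.28 to 0.081 (Aldh16a1). The length of the coding transcript and the search without the forms taken from Rarb were added after the data were seen, and the former moved the mean share of Aldh1a7 from 44.9% to 29.8% in control and from 15.9% to 9.19% in cachectic mice. Depth limits Stra6, Rarb and Crabp2, which had at most 38 counts in a mouse.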
